A study of Mus musculus with 4 samples.

Results

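The Mesenchyme-Ifitm1 cells were fibroblasts that the authors separated by clustering in cultures of mouse colonic organoids, that is, of epithelium from the distal colon kept in a gel. They were taken as the cells that the deposited cell table annotates as Mesenchyme-Ifitm1, which gave 893 of 6155 cells. The study compared organoids of wildtype mice and of Tnfr2-/- mice, in which the gene Tnfrsf1b of TNF receptor 2 is knocked out, grown without or with tumor necrosis factor (TNF). The 4 groups held 1 library each, so no group has a replicate. They were the wildtype cultures without TNF (wildtype untreated) and with it (wildtype TNF), and the same for the knockout (Tnfr2-/- untreated, Tnfr2-/- TNF). All came from mice 16 weeks old. TNF was given at 20 ng/ml between days 1 and 6 once passage 5 was done, and cells were taken on day 7. Of the class, 892 cells were in the wildtype untreated library, 1 cell was in Tnfr2-/- untreated and 0 cells were in either TNF library. The class was therefore compared across genes, within the wildtype untreated library, with the other 3 mesenchymal classes found there: Mesenchyme-generic (393 cells), Mesenchyme-proliferative (111 cells) and Mesenchyme-Ptges (34 cells).

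Fibroblasts of the colon lay down the collagen and elastic fibres around the crypts and send signals to the epithelium. Near the top of the crypt they are known for bone morphogenetic proteins (BMPs) and for Wnt5a, which go with epithelial differentiation. Near the crypt base they are known for BMP antagonists such as Grem1 and for R-spondins, which amplify WNT signals to stem cells. They also release chemokines that draw leukocytes, and insulin-like growth factor 1. Ifitm1, which gives the class its name, belongs to a family of membrane proteins that block the entry of viruses and that interferons induce in many cells.

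The levels were sums of unique molecular identifiers (UMIs, each a counted RNA molecule) over the cells of a class, scaled to CPM, the count in every 1000000 UMIs of the sum, with exact Poisson 95% intervals in brackets. These intervals hold counting error alone and say nothing of how cultures or mice vary. The class sum held about 21340000 UMIs, with a median of 22354.5 per cell, and a single UMI stood for 0.0469 CPM. Mesenchyme-generic had a similar depth (median 21807) and Mesenchyme-proliferative a greater one (35736). Mesenchyme-Ptges had a median of only 5755 UMIs and a median mitochondrial share of 16.7%, against 3.34% in the class, and a single UMI there stood for 2.92 CPM. The part of this low depth and high mitochondrial share in the differences from Mesenchyme-Ptges was not tested. In the wildtype mesenchyme Xist was at 705 CPM without TNF and 553 CPM with TNF, and in the Tnfr2-/- mesenchyme it was at 0.459 and 0 CPM while Ddx3y was at 74.9 and 70.0 CPM. Genotype and sex cannot be told apart, and neither can be told apart from the culture. Of 3 cell barcodes that occurred in more than 1 library, 1 belonged to a cell of the class.

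The label of the cells was checked against marker lists. All 8 fibroblast markers were detected, with a summed level of 15148 CPM in the class against 14.9 CPM in the epithelial cells of the same library. Pdgfra, the receptor that marks most colonic fibroblasts, was at 208 CPM (202 to 215), and Col3a1, a chain of fibrillar collagen, at 4492 CPM (4464 to 4521). The 5 endothelial markers summed to 0.328 CPM with Cdh5, Tie1 and Lyve1 at 0, the 7 immune markers to 2.25 CPM with Ptprc, Cd3e, Cd79a and Tyrobp at 0, the 5 glial markers to 1.08 CPM and the 4 mesothelial markers to 2.11 CPM. Of the smooth muscle and pericyte markers 8 of 9 were under 5 CPM, Acta2 being the exception. The 7 epithelial markers summed to 352 CPM, against 58.4 to 114 CPM in the other 3 classes and 14384 CPM in the epithelium, and are described further on. The 3 markers of reticular fibroblasts summed to 0.984 CPM. New Leiden clusters of all mesenchymal cells placed 826 of the 893 cells (92.5%) in a single cluster, of which they made up 96.6%, and 48 cells (5.38%) in the cluster that held 102 of the Mesenchyme-proliferative cells.

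The class made up 892 of 1430 mesenchymal cells of the wildtype untreated library, or 62.4% (exact Clopper-Pearson interval 59.8 to 64.9%). It made up 1 of 90 in Tnfr2-/- untreated (1.11%, 0.0281 to 6.04%), 0 of 306 in wildtype TNF and 0 of 122 in Tnfr2-/- TNF. Taking 3 cells as the limit that a count of 0 allows, these shares could be up to 0.980% and 2.46%, and the exact two-sided intervals reach 1.20% and 2.98%. In the wildtype untreated culture it was thus the most numerous mesenchymal class, and in the other cultures it was at or near 0. With 1 culture per group the difference between libraries has no replicate check. Fewer cells of a kind in a culture and cells of that kind assigned to another class cannot be told apart from these shares.

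The 6 genes by which the class is known were high in it, but each was also carried by at least 1 of the other classes. Since the classes were made by clustering these genes along with all others, the differences between classes are a description and carry no test. Ifitm1 (ENSMUSG00000025491, chromosome 7, 140967221 to 140969825, plus strand, GRCm38) was at 1229 CPM (1214 to 1244) in the class, 130 (123 to 138) in Mesenchyme-generic, 1045 (1014 to 1077) in Mesenchyme-proliferative and 219 (172 to 274) in Mesenchyme-Ptges. It was thus 9.43-fold above generic (8.90 to 10.0) but only 1.18-fold above proliferative (1.14 to 1.21). The gene separated the class from generic and from Ptges and hardly from the proliferative cells.

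Igfbp5 (ENSMUSG00000026185, chromosome 1, 72857932 to 72874884, minus strand), which binds insulin-like growth factors in the matrix, was at 765 CPM (754 to 777) in the class, 58.1 in generic, 271 in proliferative and 1223 (1109 to 1346) in Ptges. The class stood 13.2-fold over generic (12.1 to 14.4) and below Ptges, at 0.626 of its level (0.568 to 0.691). Eln (ENSMUSG00000029675, chromosome 5, 134702593 to 134747323, minus strand) codes for tropoelastin, the protein of elastic fibres. Its level was 301 CPM (293 to 308) in the class, 52.3 in generic, 200.1 in proliferative and 245 in Ptges, and the ratio to Ptges of 1.23 had an interval from 0.989 to 1.54.

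Igf1 (ENSMUSG00000020053, chromosome 10, 87858265 to 87937042, plus strand), a growth factor, was at 2507 CPM (2486 to 2528) in the class, 927 in generic, 1811 in proliferative and 1924 in Ptges. Ccl8 (ENSMUSG00000009185, chromosome 11, 82115185 to 82116799, plus strand), a chemokine for monocytes and lymphocytes, followed the same order, with 1860 CPM (1841 to 1878), 613, 1114 and 1597. Both were spread over all the classes, with the class at the top and generic at the bottom. Ccl11 (ENSMUSG00000020676, chromosome 11, 82057823 to 82062955, plus strand), the eosinophil chemokine eotaxin, had another order. It was at 481 CPM (472 to 490.2) in the class, 342 (330 to 354) in generic, 219 in Ptges and 111 (101 to 121) in proliferative. Of the 6 genes, Ccl11 was the one that separated the class best from the proliferative cells, by 4.34-fold (3.95 to 4.78), and least from generic, by 1.41-fold (1.35 to 1.47).

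**Figure D1:**
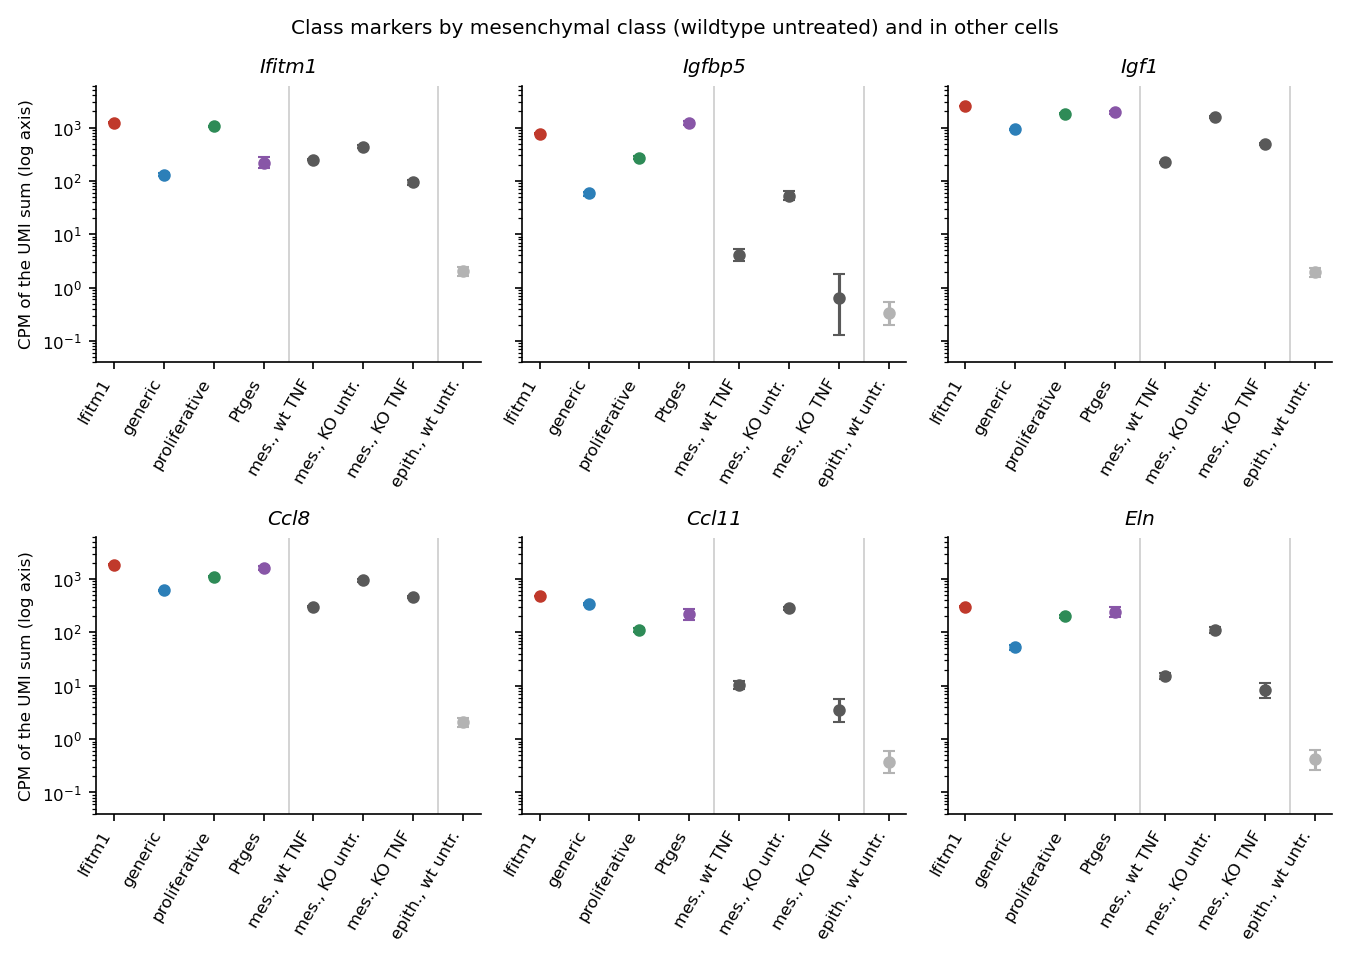
The 6 genes by which Mesenchyme-Ifitm1 is known, as CPM of the UMI sum on a log axis with exact Poisson 95% intervals (counting error only). The 4 coloured points are the mesenchymal classes of the wildtype untreated library, the dark grey points all mesenchymal cells of the other 3 libraries (KO is Tnfr2-/-) and the light grey point the epithelium of the wildtype untreated library. Each gene is high in the class and in at least 1 other class, and near 0 in the epithelium.

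Shares of cells showed the same. After each cell was thinned to 5000 UMIs, which left 890 of the 892 cells, Ifitm1 had at least 1 UMI in 87.1% of the class (96.7% without thinning), 24.0% of generic, 85.6% of proliferative and 50% of Ptges cells, against 0.645% of epithelial cells, which served as the background of free RNA. The median depths before thinning were 22354.5 UMIs in the class and 37245.5 in the epithelium. Of the 34 Ptges cells only 24 were left after thinning, and their Ifitm1 share had an exact interval from 29.1 to 70.9%. Igf1 was found in 99.9% of the class, Ccl8 in 77.8%, Eln in 71.0%, Igfbp5 in 62.7% and Ccl11 in 36.9%, and none of these passed 1% in the epithelium. Without thinning these shares were 100%, 88.1%, 93.0%, 77.5% and 46.6%, and Ccl11 was in 48.3% of generic cells. The other mesenchymal classes carried these genes too. Once thinned, 91.7 to 99.1% of their cells had Igf1, 49.7 to 71.2% Ccl8 and 17.3 to 63.1% Eln. For Igfbp5 the shares were 8.93% in generic, 35.1% in proliferative and 62.5% in Ptges, and for Ccl11 36.2%, 18.0% and 20.8%. Ccl11 was therefore missing at this depth from most cells of the class, while Igf1 was in nearly all.

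Over all genes, the class differed from generic and from the proliferative cells in about the same share of genes. Against the proliferative cells most of these genes were lower in the class, while against generic the direction depended on the scaling. A gene was counted as different where log2(CPM + 1) differed by at least 1, that is by 2-fold, and the gene reached 20 CPM in the class or in the class it was compared with. Against Mesenchyme-generic, 370 of 6385 genes were higher in the class (5.79%) and 169 were lower (2.65%), 539 in all (8.44%). With TMM factors, a scaling that centres most genes on no difference, this split was 271 higher to 240 lower, and with median-of-ratios factors 255 to 252, since these moved the median difference of all genes from 0.20 by -0.15 and -0.18. Against Mesenchyme-proliferative only 79 of 6748 genes were higher (1.17%) and 500 were lower (7.41%), 579 in all (8.58%). Against Mesenchyme-Ptges 769 of 6827 were higher (11.3%) and 518 lower (7.59%), 1287 in all (18.9%). Of the 370 genes higher than in generic, 259 (70.0%) were also past 2-fold in the same direction in the proliferative cells against generic, and 204 (55.1%) in the Ptges cells against generic. For the 169 lower genes these shares were 87.6% and 38.5%. These comparisons share the generic cells, so their overlap is given as a count only.

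**Figure D2:**
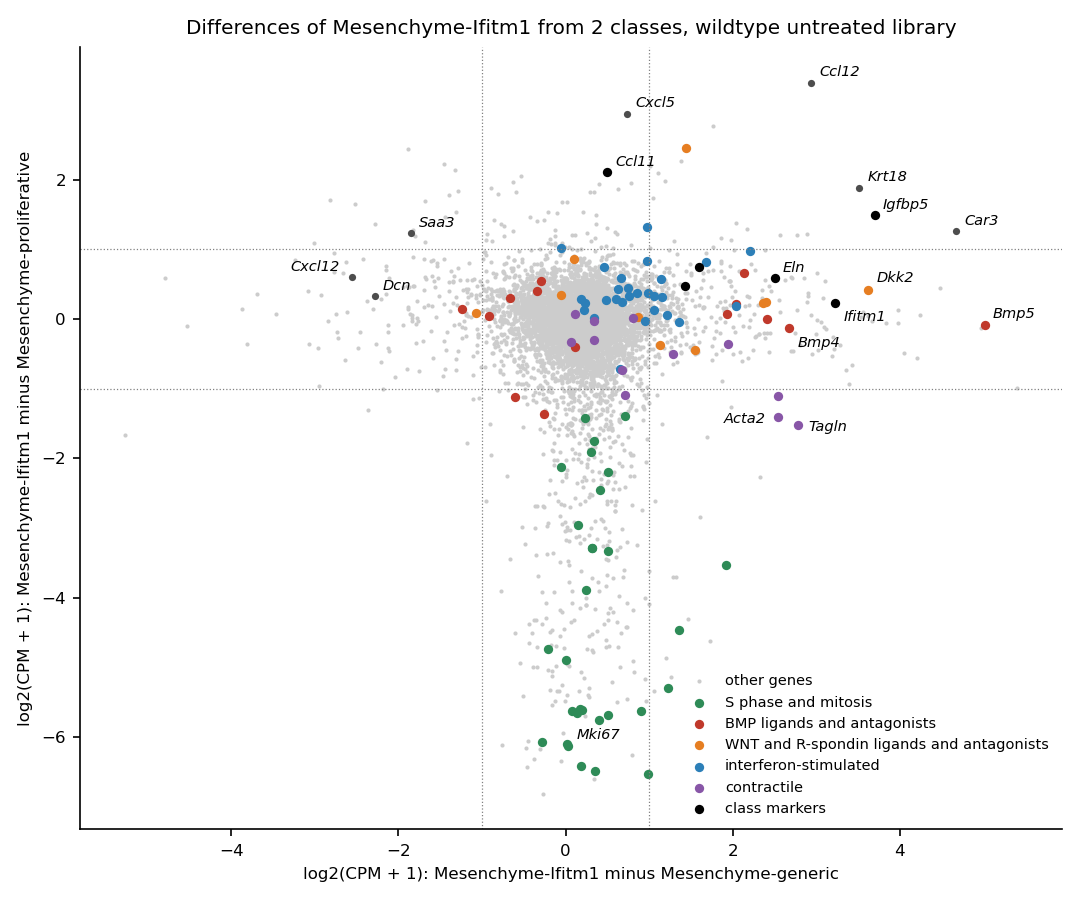
Each point is a gene at 20 CPM or more in at least 1 of the 3 classes plotted. The horizontal axis is the log2(CPM + 1) difference of Mesenchyme-Ifitm1 from Mesenchyme-generic and the vertical axis that from Mesenchyme-proliferative. Dotted lines mark 2-fold. BMP ligands such as Bmp5 lie to the right near 0 on the vertical axis (5.01 and -0.08), S phase and mitosis genes at the bottom (Mki67 at -6.12 on the vertical axis), and few genes lie at the upper right.

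Only 10 of 6090 genes (0.164%) were at least 2-fold higher in the class than in each of the other 3 classes, and 2 of 4929 (0.0406%) were lower than in each. Ccl12 led the 10 genes by the smallest of its 3 differences, 2.94. Ccl12 (ENSMUSG00000035352, chromosome 11, 82101845 to 82103400, plus strand) codes for a monocyte chemokine and lies between Ccl11 and Ccl8 in the same gene cluster. It was at 32.3 CPM (29.9 to 34.8) in the class, 3.34 in generic, 2.17 in proliferative and 2.92 in Ptges, where it rested on a single UMI, so that the ratio of 11.1 to Ptges had a counting interval from 1.98 to 437. Against generic the ratio was 9.66 (6.70 to 14.4). It was the only gene of the 10 that passed 4-fold in all 3 comparisons.

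Rspo1, an R-spondin, was at 34.8 CPM (32.4 to 37.4) in the class, 12.1 in generic, 5.55 in proliferative and 14.6 in Ptges. Akap7, an anchoring protein for protein kinase A, was at 85.8 CPM against 20.2, 32.3 and 32.1. Car3, a carbonic anhydrase, was at 36.0 CPM against 0.446 (4 UMIs), 14.5 and 5.84 (2 UMIs), the ratio to Ptges being 6.16 with an interval from 1.70 to 51.0. At 5000 UMIs per cell, 12.2% of the class had a UMI of Rspo1 and 6.18% of Ccl12 (33.0% and 12.7% without thinning), and 0% of epithelial cells had either. The other 6 of the 10 genes were Krt18, Krt19, Krt8, Agr2 and Sprr2a3, which are best known from epithelium, and Clu. Clu was at 36.8 CPM in the class and at 343 CPM in the epithelium. The 2 lower genes were Tnfsf9, the ligand of the T cell receptor 4-1BB, at 11.3 CPM against 26.9, 41.3 and 26.3, and Ltbp2, a protein of elastic microfibrils, at 24.3 CPM against 72.3, 50.4 and 90.5. With Mesenchyme-Ptges left out of the comparison, 21 genes were higher than in both of the others (0.345%).

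Keratins 8, 18 and 19 are filament proteins of simple epithelia, and their UMIs were spread over the class in different ways. Krt8 was at 68.0 CPM (64.6 to 71.6) in the class, 31.1 in generic, 15.2 in proliferative and 2.92 (1 UMI) in Ptges, which was 1.45% of its level of 4702 CPM in the epithelium. Krt19 was at 62.7, 26.9, 15.2 and 20.4 CPM, or 1.61% of the epithelial level, and Epcam, an adhesion protein of epithelia, at 1.16%. Krt18 was at 169 CPM (163 to 174) in the class against 13.8, 44.9 and 23.4 CPM, which was 13.2% of the epithelial level. In the class, 14 of 892 cells (1.57%) had 10 or more UMIs summed over Epcam, Krt8, Krt19 and Cldn7, at a median depth of 41027.5 UMIs. Krt8 and Krt19 were part of that sum, while Agr2 and Krt18 were not. The share of Krt8 and Krt19 in these cells, and their fall without the cells, were thus set in part by the choice. Those 14 cells held 73.6% of the UMIs of Krt8, 73.8% of those of Krt19 and 77.5% of those of Agr2, but 12% of those of Krt18. Without them Krt8 was at 18.5 CPM and Krt19 at 16.9 CPM, Krt18 at 153 CPM, and 5 of the 10 genes were still higher than in all 3 classes when such cells were left out everywhere: Ccl12, Krt18, Akap7, Car3 and Rspo1. The count of genes was then 6, and the same count was found without the cells that scrublet called doublets. Agr2, Krt19, Krt8, Clu and Sprr2a3 were thus no longer higher than in all 3 classes once such cells were left out everywhere. Besides the 14 cells of the class, this took 8 cells from generic and 1 from proliferative. The part of epithelial RNA or of mixed droplets in these cells was not tested.

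Several BMP ligands and WNT genes were far higher in the class than in generic, and few genes of these pathways differed between the class and the proliferative cells. Of 14 measured BMP ligands and antagonists 6 were higher than in generic and 1 was lower, where 5.79% and 2.65% of all genes were. Against proliferative the counts were 0 and 2 of 13 (Fst and Gdf15 lower), and against Ptges 0 and 2 of 14. Of all genes 1.17% were higher and 7.41% lower than in proliferative, and 11.3% and 7.59% than in Ptges. Bmp4, a ligand of the upper crypt, was at 456 CPM (447 to 465) in the class, 70.5 (65.2 to 76.3) in generic, 501 (479 to 523) in proliferative and 344 (285 to 413) in Ptges. Bmp5 was at 85.3 CPM (81.4 to 89.3), 1.67 (15 UMIs), 90.3 and 90.5, so that it was 51.0-fold over generic (30.9 to 91.3) and level with the other classes within counting error. Bmp7 had 178, 32.9, 179 and 161 CPM, Bmp3 had 154, 36.6, 132 and 102, Bmp2 had 423, 95.3, 268 and 359, and Inhba, which codes for activin A, had 188, 48.3, 179 and 274. Grem1, which binds and blocks BMPs, ran the other way, with 508 CPM (499 to 518) in the class, 1196 in generic, 463 in proliferative and 1936 in Ptges. The class and the proliferative cells therefore shared high BMP ligands with the lower levels of Grem1. The median difference of the list from generic was -0.07, against 0.20 over all genes, since the list holds both the 6 high genes and 8 that were level or low.

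Of 10 measured WNT and R-spondin genes 6 were higher than in generic (5.79% of all genes) and 1 was lower (2.65%). Their median difference was 1.29, against 0.20 over all genes. Against proliferative 1 was higher (1.17% of all genes), Rspo1 by 6.27-fold (4.15 to 9.96), and against Ptges 3 were higher (11.3%). Wnt5a was at 651 CPM (640 to 661) in the class, 126 in generic, 554 in proliferative and 739 in Ptges, and had a UMI in 87.0%, 42.3%, 80.2% and 79.2% of thinned cells. Dkk2, an inhibitor of WNT signals, was at 164, 12.4, 123 and 90.5 CPM, and Wnt5b at 44.7, 7.69, 37.6 and 23.4. Sfrp2, which binds WNT proteins, had 390.0, 178, 505 and 161 CPM, and Rspo4 had 42.2, 13.7, 57.7 and 40.9. Rspo3, the R-spondin of the crypt base, was the lower gene, with 54.6 CPM in the class and 115 in generic.

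**Figure D3:**
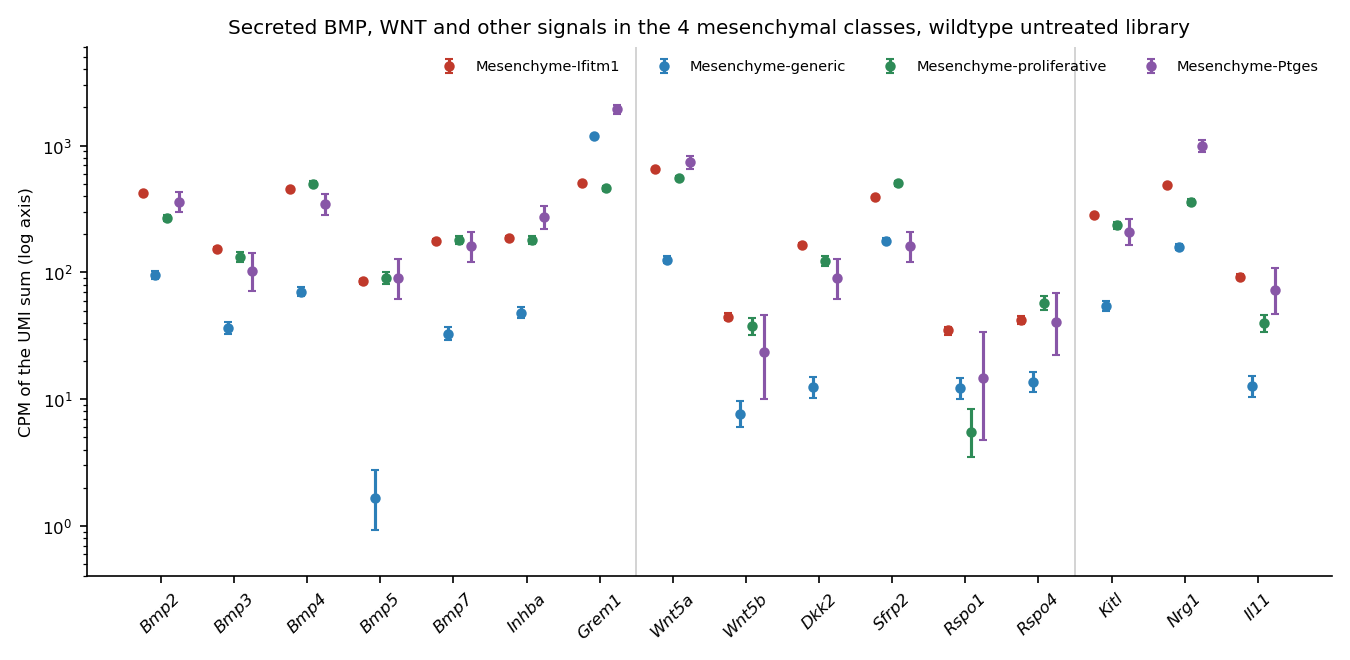
CPM of secreted signals in the 4 mesenchymal classes of the wildtype untreated library, on a log axis with exact Poisson 95% intervals (counting error only). From left to right are the BMP and activin genes with Grem1, the WNT and R-spondin genes, and 3 other signals. Mesenchyme-generic is lowest for most ligands (Bmp5 at 1.67 against 85.3 in Mesenchyme-Ifitm1), while Grem1 is high in generic (1196) and Ptges (1936), and Rspo1 is the gene shown here that is at least 2-fold above each of the other 3 classes.

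Marker lists of fibroblast kinds described in the mouse colon gave no single match. The telocyte markers summed to 775 CPM in the class, 153 in generic, 679 in proliferative and 858 in Ptges. The trophocyte markers summed to 986, 1713, 904 and 2432 CPM, and the adventitial ones to 53.2 CPM in the class and 55.7 in generic. In each class Wnt5a made up most of the telocyte sum and Grem1, a trophocyte marker, most of the trophocyte sum. These sums thus follow mainly the levels of those genes given above. For telocytes, the fibroblasts of the upper crypt, Bmp5 and Wnt5a were high, F3 was at 30.7 CPM, and Foxl1, the defining factor, was only at 6.61 CPM (5.56 to 7.79) in the class and at 3.57 to 11.7 CPM in the others. Sox6, another telocyte marker, was under 5 CPM in the class. For trophocytes, the fibroblasts below the crypt, Ackr4 was at 9.18 CPM against 25.9 in generic, while Cd81 (426 and 467 CPM) and Cd34 (42.9 and 24.0) differed by less than 2-fold. The class is therefore called by its label and by no name of these kinds.

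Other growth factors gave a mixed picture against generic, with 5 of 20 higher (5.79% of all genes) and 4 lower (2.65%). Kitl, the ligand of the receptor Kit, was at 282 CPM (275 to 290) in the class, 54.5 in generic, 237 in proliferative and 210 in Ptges. Nrg1, a ligand of ErbB receptors, was at 490.5, 158, 360.1 and 989.7 CPM. Il11, a cytokine of activated fibroblasts, was at 92.5 CPM (88.5 to 96.7), 12.7, 39.6 and 73.0, and was past 2-fold against generic and against proliferative. Fgf2 was lower, at 16.3 CPM against 62.1 in generic and 75.9 in Ptges, as was Vegfd, at 6.89 against 22.7 and 32.1. Of the cytokines and alarmins 3 of 9 were higher than in generic and 2 lower, and with TMM factors 1 was higher and 2 lower.

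Of the insulin-like growth factor axis 4 of 10 measured genes were higher than in generic (5.79% of all genes) and 0 lower (2.65%). Besides Igf1 and Igfbp5 these were Igfbp4, another binding protein, at 2898 CPM (2875 to 2921) against 739, 1982 and 1217, and Stc1, an inhibitor of the protease that cleaves Igfbp4, at 76.9 CPM against 7.47, 92.4 and 75.9. Of the retinoid and lipid handling genes 3 of 9 were higher than in generic and 1 lower (3 and 3 with TMM factors). The higher ones included 2 enzymes of retinoic acid synthesis. Aldh1a2 was at 112 CPM (108 to 117) in the class, 7.91 in generic, 114 in proliferative and 26.3 in Ptges, and Aldh1a1 at 45.4, 1.45 (13 UMIs), 43.7 and 23.4. Crabp1, which binds retinoic acid in the cytosol, was lower, at 373 CPM against 1626 in generic and 2222 in Ptges and 397 in proliferative. The class and the proliferative cells thus shared the enzymes at 31.3-fold (Aldh1a1) and 14.2-fold (Aldh1a2) over generic in the class, and the low Crabp1.

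In the IFITM family, 3 of 7 genes reached 20 CPM, and they lie side by side on chromosome 7. Ifitm3 was at 3519 CPM (3494 to 3544) in the class, 1888 in generic, 3184 in proliferative and 1690 in Ptges. Ifitm2 was at 1786, 1086, 1521 and 1004 CPM. Against generic, Ifitm3 differed by 1.86-fold (1.83 to 1.89) and Ifitm2 by 1.64-fold (1.61 to 1.68), far less than the 9.43-fold of Ifitm1. The 3 genes are near copies of each other in part, and how their reads were split was not checked here.

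Some other interferon-stimulated genes were higher than in generic and most did not pass 2-fold. Of 28 measured, 9 were higher than in generic and 0 lower (6 of 27 with TMM and 5 with median-of-ratios factors), 2 were higher than in proliferative and 12 higher than in Ptges. Of all genes 5.79% were higher than in generic, 1.17% than in proliferative and 11.3% than in Ptges. The median differences of the listed genes were 0.80, 0.32 and 0.78, against 0.20, -0.02 and 0.15 over all genes. Isg15, a ubiquitin-like modifier, was at 412 CPM (403 to 421) in the class, 161 in generic, 425 in proliferative and 87.6 in Ptges. Ifit3, an antiviral protein, was at 212 CPM (206 to 218), 65.6, 120.2 and 93.4, and its near copy Ifit3b at 57.2, 11.6, 28.7 and 17.5, where reads may be shared between both. Ifi47, a GTPase induced by interferon gamma, was at 44.5, 10.0, 39.1 and 5.84 CPM (2 UMIs). Of 13 genes of antigen presentation by MHC class I, 3 were higher than in generic, all of them subunits of the immunoproteasome. Psmb8 was at 349 CPM against 132, 414 and 105, Psmb9 at 116 against 40.0, 159 and 38.0, and Psmb10 at 179 against 69.9, 160.3 and 58.4.

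To show the sequence in front of these genes, the 250 bases before the RefSeq start were searched for the core of the interferon-stimulated response element, GAAANNGAAA, on both strands, copies that overlap included. It was found before 936 of 27025 genes (3.46%) and before 13 of the 26 listed interferon-stimulated genes with a sequence. Of the 9 that were higher than in generic only 6 had a sequence, and 4 of those 6 held the motif. Among the other measured ones 16 had a sequence, and 6 of those held it. In the IFITM family it was found before 1 of 7 genes, Ifitm2, and not before Ifitm1, the gene with the 9.43-fold difference, or Ifitm3. The promoters of the 3 IFITM genes, and of Isg15 and Ifit3 as genes that hold the motif, are given 5′ to 3′ on the gene's strand (RefSeq, GRCm38.p6). Each runs up to the RefSeq start, or to an annotated transcript start that lies earlier within the 250 bases, with the motif in capitals. For Ifitm1 this stretch lies inside the annotated span of the gene given above. The bases before the start of that span were not searched, so the lack of a match holds for the RefSeq start only. Before Isg15 3 copies overlap.
Ifitm1, chr7:140967826-140968027, plus strand: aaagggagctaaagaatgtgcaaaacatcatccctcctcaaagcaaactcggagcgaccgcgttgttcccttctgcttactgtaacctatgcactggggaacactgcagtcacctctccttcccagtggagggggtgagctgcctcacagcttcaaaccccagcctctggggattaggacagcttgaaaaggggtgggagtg
Ifitm2, chr7:140955988-140956211, minus strand: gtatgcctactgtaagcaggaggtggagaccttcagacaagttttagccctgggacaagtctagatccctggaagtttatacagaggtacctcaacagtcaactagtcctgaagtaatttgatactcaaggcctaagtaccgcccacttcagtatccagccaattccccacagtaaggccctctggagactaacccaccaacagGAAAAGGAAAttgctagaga
Ifitm3, chr7:141010771-141010994, minus strand: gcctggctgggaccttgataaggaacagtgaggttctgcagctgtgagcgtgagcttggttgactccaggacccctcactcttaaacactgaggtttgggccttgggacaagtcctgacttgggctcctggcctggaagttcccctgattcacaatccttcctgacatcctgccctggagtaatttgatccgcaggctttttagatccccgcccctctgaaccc
Isg15, chr4:156200819-156201068, minus strand: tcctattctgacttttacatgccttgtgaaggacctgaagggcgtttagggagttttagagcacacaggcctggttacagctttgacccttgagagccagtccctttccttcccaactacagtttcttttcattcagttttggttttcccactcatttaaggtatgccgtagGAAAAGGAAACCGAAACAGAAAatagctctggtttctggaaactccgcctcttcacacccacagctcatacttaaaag
Ifit3, chr19:34583279-34583528, plus strand: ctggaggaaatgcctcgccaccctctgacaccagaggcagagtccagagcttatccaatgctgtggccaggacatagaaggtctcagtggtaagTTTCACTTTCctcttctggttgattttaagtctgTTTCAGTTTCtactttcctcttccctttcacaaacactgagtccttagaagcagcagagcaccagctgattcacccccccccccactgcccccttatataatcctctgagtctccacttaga
The motif of Ifitm2 begins 46 bases before the RefSeq start, those of Isg15 78, 72 and 66 bases and those of Ifit3 156 and 122 bases before it. A match is a description of the letters and not of a bound factor.

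The chemokines divided the class from its neighbours in different ways. Of 5 measured CC chemokines 2 were higher than in generic (Ccl8 and Ccl12) and 3 higher than in proliferative (Ccl11, Ccl12 and Ccl7). Over all genes these shares were 5.79% and 1.17%. Ccl7 was at 253 CPM in the class, 276 in generic, 111 in proliferative and 464 in Ptges. Ccl2, the main monocyte chemokine, was at 753 CPM (741 to 765), 726, 742 and 2446, so that it separated only Ptges. Cxcl5, a neutrophil chemokine, was at 596 CPM (585 to 606) in the class, 357 in generic, 76.5 in proliferative and 423 in Ptges, 7.79-fold over proliferative (6.96 to 8.73). Cxcl10, a T cell chemokine induced by interferons, was at 107, 21.4, 128 and 46.7 CPM. Cxcl12, which holds blood stem cells and B cells in their niches, was lower than in generic, at 23.2 CPM against 141, with 15.0 in proliferative and 49.6 in Ptges.

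The matrix genes were mostly level between classes, with a few far apart. Of 18 measured collagen chains 4 were higher than in generic (5.79% of all genes) and 1 lower (2.65%). Col3a1 was at 4492, 3345, 3456 and 5906 CPM. Col8a1, a short-chain collagen, was at 113 CPM against 13.7, 160.5 and 52.5, and Col15a1, of basement membranes, at 32.7 against 3.57, 13.5 and 38.0. Of 18 elastic fibre genes 6 were higher than in generic and 2 lower (2 and 2 with TMM factors). Fbln2, a fibulin, was lower, at 125 CPM against 557 in generic. Tgfbi, a matrix protein that TGF-beta induces, was at 122 CPM against 13.3, 135 and 84.7. Dcn, a small proteoglycan that coats collagen fibrils, was at 1047 CPM (1034 to 1061) in the class, 5099 (5053 to 5146) in generic, 836 in proliferative and 2683 in Ptges. Spp1, the matrix protein osteopontin, was at 24.9 CPM against 176, 15.2 and 259.8.

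C3 and Saa3 were lower than in generic, while most other genes of complement and most NF-kB targets were not. C3, the central complement component, was at 431 CPM (422 to 440.1) in the class, 1394 in generic, 238 in proliferative and 1048 in Ptges. Of the complement list 0 of 10 genes were higher than in generic and 1 lower, while 3 of 10 were higher than in proliferative. Over all genes 5.79% were higher and 2.65% lower than in generic, and 1.17% were higher than in proliferative. Saa3, an acute-phase apolipoprotein, was at 8882 CPM (8842 to 8922) in the class, 32011 in generic, 3796 in proliferative and 8198 in Ptges. Of the NF-kB targets 1 of 18 was higher than in generic, Lcn2 at 1827 against 898 CPM (0 of 18 with TMM factors), and 1 lower, Saa3. The count of higher NF-kB targets thus lay near the share over all genes.

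The class differed from the proliferative cells in genes of the cell cycle. All 30 S phase and mitosis genes were lower in the class, where 7.41% of all genes were. Their median difference was -4.81, against -0.02 over all genes. Most of them were measured only because they reached 20 CPM in the proliferative cells, and the clustering used them too. That they were lower was thus set by the filter and the clustering, and it is no separate support. Mki67, a protein of cycling cells, was at 6.84 CPM (5.78 to 8.05) in the class, 6.69 in generic, 546 (523 to 569) in proliferative and 11.7 in Ptges, and Top2a at 10.9, 7.36, 614 and 29.2. Of the 30 genes 8 were measured against generic, and 0 of those were past 2-fold. Mcm4, a helicase subunit of replication, was at 55.3 CPM against 33.3 in generic and 147 in proliferative. The class was thus made of cells with few transcripts of the cell cycle.

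Acta2 and Tagln lay above generic and below proliferative, and most other contractile genes were level. Acta2 was at 90.5 CPM (86.5 to 94.6) in the class, 14.7 (12.3 to 17.4) in generic, 242 (227 to 257) in proliferative and 5.84 (2 UMIs) in Ptges. Tagln, an actin-binding protein, was at 61.9, 8.14, 179 and 2.92 CPM. Much of both came from a sub-cluster of 33 of the 892 cells, described further on, with Tagln at 787 CPM and Acta2 at 669 CPM. In the sub-clusters of 316, 158, 182 and 203 cells Tagln was at 2.46, 31.4, 1.13 and 12.8 CPM, on both sides of its level in generic. Acta2 was there at 53.5, 89.9, 8.39 and 50.3 CPM. Outside the 33 cells, Acta2 was thus below the level of generic only in the 182 cells and above it in the others. Of 11 contractile genes 4 were higher than in generic and 0 lower, and against proliferative 0 of 12 were higher and 4 lower. Of all genes 5.79% were higher and 2.65% lower than in generic, and 1.17% and 7.41% than in proliferative. Myh11, Des and Cnn1 were under 5 CPM in the class.

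Inhibitors of the cell cycle did not move as a group, with 2 of 9 higher (5.79% of all genes) and 3 lower (2.65%) than in generic. Cdkn2a, which codes for p16 and p19Arf, was at 161 CPM in the class, 567 in generic, 116 in proliferative and 409 in Ptges. Cdkn1a, which codes for p21, was at 368 CPM against 795 in generic and 815 in proliferative and 356 in Ptges. Gas1 was at 93.8, 302, 43.2 and 123 CPM. Cdkn1c, which codes for p57, had the reverse order, at 35.7, 7.02, 38.9 and 5.84 CPM. Among factors of position, 6 of 15 were higher than in generic and 2 lower. Tcf21 was at 104 CPM against 14.6 in generic and 119.7 in proliferative, and Foxf2, which colonic fibroblasts need to restrain WNT signals, at 48.0 against 11.0 and 54.5. Hoxa13, a gene of the hindgut, was at 25.02 against 8.58 and 32.3 CPM. Tbx18 was at 2.44 CPM in the class and 22.0 in generic.

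**Figure D4:**
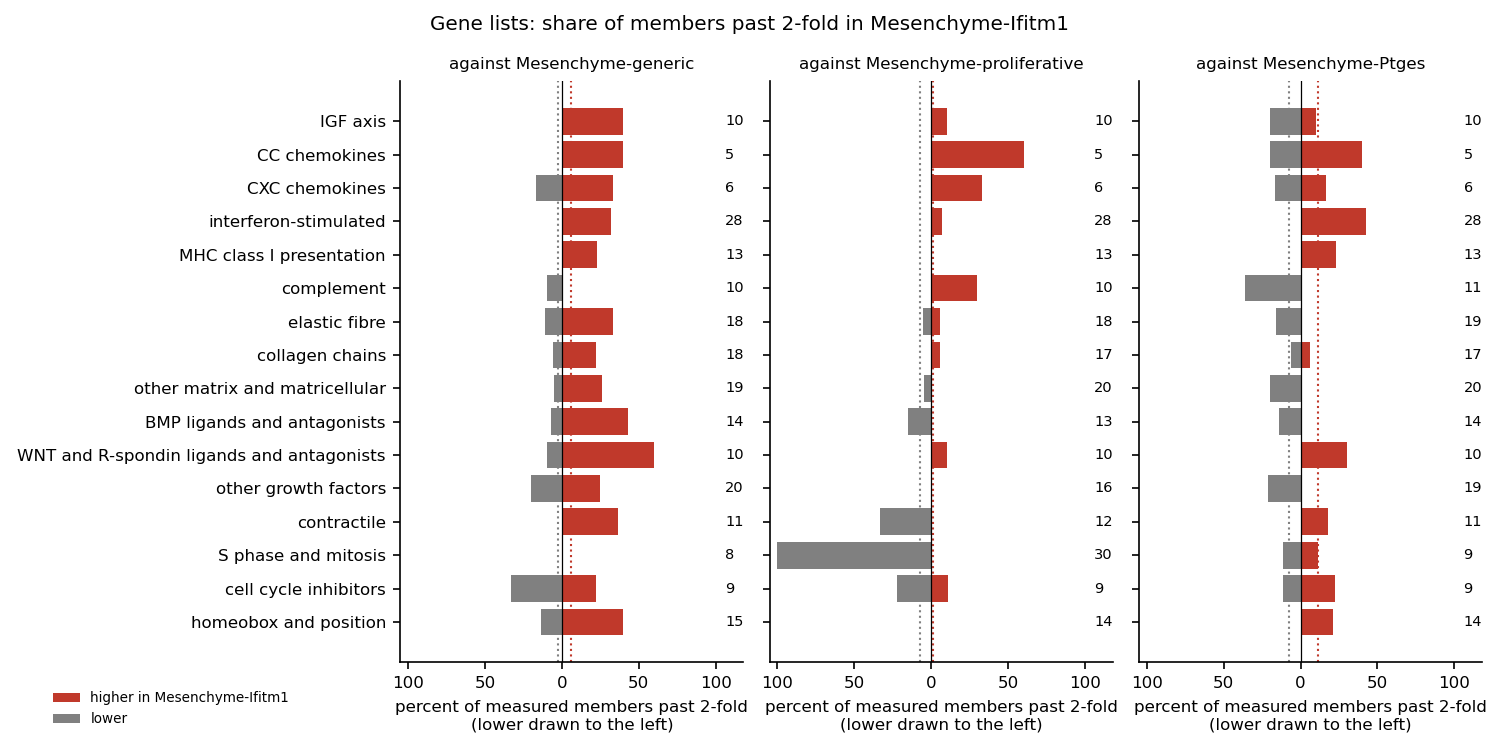
Share of the measured members of 16 gene lists that were at least 2-fold higher (red, to the right) or lower (grey, to the left) in Mesenchyme-Ifitm1 than in each other class, wildtype untreated library. Dotted lines mark the shares over all genes tested (5.79% and 2.65% for generic) and the number at the right of each bar is the number of members measured. The lists were chosen with earlier results known, and the shares carry no test.

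Scaling moved some of these counts. With TMM factors the numbers higher and lower than in generic were 6 and 2 for the BMP list, 5 and 1 for WNT, 1 and 1 for the CXC chemokines, 4 and 4 of 19 for other growth factors, 0 and 2 for complement, 1 and 3 for the cell cycle inhibitors and 4 and 3 for the factors of position. They did not change for the insulin-like growth factor axis, MHC class I presentation, the collagens and the contractile genes.

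The TNF receptors, on which the study turns, differed little between the classes. Tnfrsf1a, the TNF receptor 1 gene, was at 176 CPM (170 to 182) in the class, 143 in generic, 171 in proliferative and 163 in Ptges. Tnfrsf1b was at 18.3 CPM (16.5 to 20.2), 20.5, 11.3 and 17.5, and had a UMI in 8.65% of thinned class cells (34.0% without thinning) and 2.03% of epithelial cells. Of the TNF receptor and adaptor list 0 of 6 genes were past 2-fold against generic, where 8.44% of all genes were. Tgfb1 was at 63.0 CPM in the class and at 87.6 to 92.7 CPM in the others. Pdgfra differed from each class by less than 2-fold. Tnf was at 0.843 CPM (18 UMIs).

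The level of some genes varied widely among cells of the class. Over the 890 thinned cells and the 3746 genes with a mean of at least 0.2 UMIs in 5000, the variance divided by the mean had a median of 1.06, where counting error alone gives about 1. For Saa3 it was 123, the highest, with a median of 16 UMIs per cell, a lowest cell at 0 and a highest at 738. Malat1, a nuclear RNA that codes for no protein, came next at 47.9, and Mgp, Ccl8, Fth1, which stores iron, and Lcn2 followed at 44.2, 34.0, 25.5 and 24.3. Ccl8 had a median of 4 UMIs and a highest cell at 223. The 89 cells with the most UMIs of a gene held 44.2% of its UMIs in the median gene. They held 49.0% of the UMIs of Saa3, 51.6% of Ccl8, 62.6% of Ccl11, 54.1% of Cxcl5 and 46.5% of Igfbp5. For Mgp, an inhibitor of calcification, they held 100%, and for Cxcl10 97.2%. For Igf1 they held 20.1% and for Col3a1 21.9%. The shares of Saa3, Ccl8 and Igfbp5 thus lay near that of the median gene, those of Mgp and Cxcl10 far above it and those of Igf1 and Col3a1 below it. Col3a1 still had a variance of 7.31 times its mean, rank 27 of the 3746 genes. A gene with few UMIs per cell has a high share in the top cells by counting alone. These genes were named by their rank after their values were seen.

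**Figure D5:**
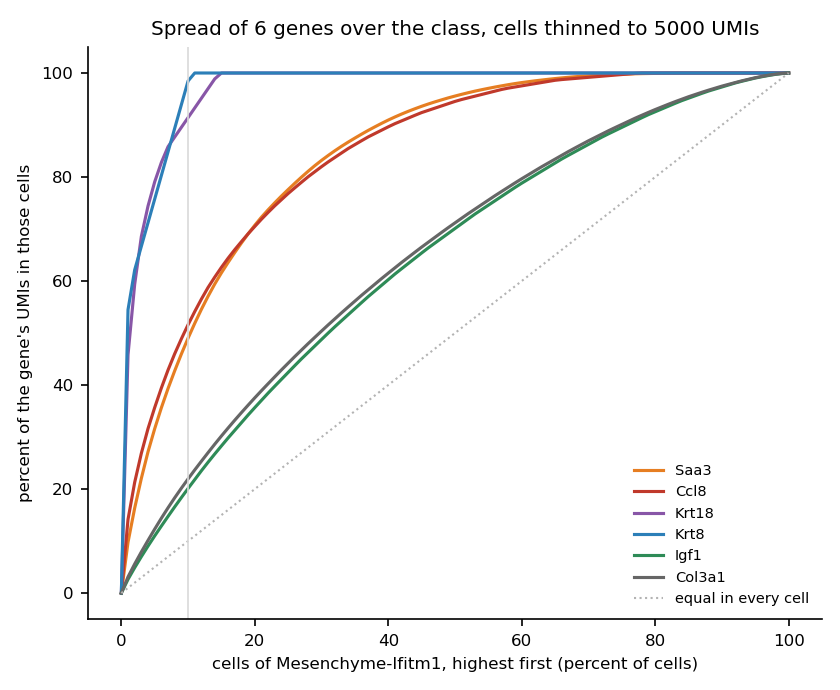
Share of a gene's UMIs (vertical axis, percent) held by the cells of Mesenchyme-Ifitm1 with the most UMIs of that gene (horizontal axis, percent of 890 cells thinned to 5000 UMIs). The dotted line is an equal share in every cell. Krt8 and Krt18 rise most steeply, Saa3 and Ccl8 lie between (49.0% and 51.6% in the top 89 cells), and Igf1 and Col3a1 lie nearest to the line.

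Clustering the 892 cells alone gave 5 sub-clusters, of 316, 158, 182, 203 and 33 cells, which are described by levels only, since the same genes made them. The sub-cluster of 316 cells had Saa3 at 19297 CPM, Ccl8 at 3100, Ccl11 at 903, Apoe at 1806 and Cxcl5 at 1178. The sub-cluster of 203 cells had Saa3 at 2324 CPM, Ccl11 at 258, Bmp4 at 667 (against 277 in the 316 cells), Il11 at 234, Stc1 at 181 and Adamdec1, a protease of gut fibroblasts, at 363. It also had Krt18 at 448 CPM with Krt8 at 21.5, Krt19 at 15.4 and Epcam at 10.4, so that there Krt18 was not accompanied by the other epithelial genes. The 182 cells had Lcn2 at 4626 CPM and Aldh3a1 at 226, and the 158 cells had Mgp at 467. The 33 cells had Krt8 at 730 CPM, Epcam at 375, Acta2 at 669 and Tagln at 787, and a median depth of 38629 UMIs against 19655.5 to 25247 in the others. Saa3, Ccl8, Ccl11 and Cxcl5 were thus highest in other cells of the class than Bmp4 and Il11, while the chemokine Ccl2 was highest in the 33 cells, at 1578 CPM against 633 to 735 CPM elsewhere.

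In the mesenchyme of the other 3 libraries, where the class had 1 cell at most, the marker genes were lower but not all near 0. Taken over all mesenchymal cells, Igfbp5 was at 529 CPM in wildtype untreated, 4.08 (3.11 to 5.25) in wildtype TNF, 52.8 in Tnfr2-/- untreated and 0.629 (0.130 to 1.84) in Tnfr2-/- TNF. Eln was at 224, 15.2, 112 and 8.17 CPM in the same order, and Ccl11 at 398, 10.5, 281 and 3.56. These 3 genes were low in both TNF cultures. Igf1 was at 2011, 222, 1561 and 494 CPM, Ccl8 at 1447, 302, 938 and 464, and Ifitm1 at 914, 251, 436 and 93.5, so that they remained well above the epithelium, where none of the 6 passed 2.07 CPM in the wildtype untreated library. Group, class and culture cannot be told apart in these values.

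In Tnfr2-/- untreated, where 51 of 90 mesenchymal cells were Mesenchyme-generic, those cells had Ifitm1 at 671 CPM, Eln at 181 and Igf1 at 1869.5, while generic cells of the wildtype culture had 130, 52.3 and 927. For Igfbp5 the values were 14.5 and 58.1 CPM. Generic cells of the Tnfr2-/- culture thus carried part of the class's genes, with Bmp4 at 192 against 70.5, Dkk2 at 74.8 against 12.4 and Wnt5a at 371 against 126 CPM. Saa3 was at 48851 CPM against 32011 CPM. Of the genes that led the class, Ccl12 and Car3 had 0 UMIs in the mesenchyme of both Tnfr2-/- libraries, which allows up to 1.38 CPM untreated and 0.629 CPM with TNF. The other leading genes were detected in both. Among them, untreated and with TNF, Akap7 was at 25.7 and 5.45 CPM and Rspo1 at 4.59 and 0.838 CPM. Krt18 was at 25.3 and 183 CPM and Clu at 95.1 and 165 CPM. In wildtype TNF Ccl12 was at 3.94 CPM and Car3 at 0, which allows up to 0.204 CPM, and Krt18 was at 155 CPM with Krt8 at 22.2.

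The 1 cell of the class in the Tnfr2-/- untreated library held 4257 UMIs of 1506 genes, with a mitochondrial share of 0.117%. It had 17 UMIs of Ccl11, 8 of Ifitm1, 6 of Igf1, 10 of Dcn and 408 of Saa3, and 0 of Igfbp5, Ccl8 and Eln. A count of 0 in this cell allows up to 705 CPM, which is above the class's own level of Eln, near that of Igfbp5 (765 CPM) and below that of Ccl8 (1860 CPM). Xist and the Y-linked genes Ddx3y, Eif2s3y, Kdm5d and Uty were all at 0 as well, so this cell could not be matched to the sex-linked transcripts of its library at this depth.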

How the data were processed

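Single-cell RNA was measured in 4 libraries, 1 per group. The authors deposited whole-number UMI counts per gene and cell with a cell table. Per the submitters' processing notes, Cell Ranger 5.0.0 and the build mm10 were used, and the study's methods name monocle3, removal of cells under 100 UMIs and of mixed epithelial and mesenchymal doublets, and Leiden clustering. Here counts were summed per class and library, scaled to CPM and compared as log2(CPM + 1) at a minimum of 20 CPM, with exact Poisson and Clopper-Pearson 95% intervals. With 1 library per group no test was made. Named genes were the 6 markers, genes past 2-fold against all 3 other classes (up to 15 higher and 10 lower), up to 6 genes per list and the highest member, and the receptor, study and sex-linked genes. Genes of the cell-to-cell spread and sub-clusters were chosen after their values were seen. The members and lists were chosen with earlier results of these data known. Alternatives covered pseudocount, minimum, scaling (TMM and median of ratios, edgeR 4.0.16), depth, doublets, threshold and libraries. Scrublet (expected rate 0.06) called 47 cells, 8 in the class, and none was removed. Clusters used 2000 variable genes, 30 components, 15 neighbours and resolution 0.5 (scanpy 1.11.5). Positions are GENCODE M21 by Ensembl ID, matched for 30240 of 30360 genes. The comparison was tested on simulated data. The number of unused columns was 0. Python 3.11.15, numpy 2.4.6, scipy 1.17.1, pandas 2.3.3 and R 4.3.3 were used.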

Additional observations from a re-analysis of the deposited data

Results flagged for a closer look

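In the wildtype untreated library 31 cells carried no class, at a median of 66566 UMIs, and entered none of the comparisons. Igf1 was at 607 CPM in their sum, against 1.93 CPM in the epithelium and 2507 CPM in Mesenchyme-Ifitm1, so a signal of the class's genes appeared in cells left out of it. Beside it stood Col3a1 at 1062 CPM, Epcam at 2122 CPM and Krt8 at 2486 CPM. Scrublet called 25 of the 47 doublets of the series among cells without a class. The part of mixed droplets in these values was not tested.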

How the results depend on the processing

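No paired analysis was possible because each group has 1 library. Of 4176 values of named differences, 20 changed sign and 718 moved beyond their counting interval. With a pseudocount of 10 CPM, 44 genes were higher than in proliferative, 435 higher and 281 lower than in Ptges, 3 higher and 0 lower than in all 3 classes. At a minimum of 5 CPM the counts were 596 higher and 340 lower than in generic, 196 higher than in proliferative, 1443 higher and 1129 lower than in Ptges, and 20 higher and 16 lower than in all 3. With no minimum they were 747 and 485, 384 and 828, 2459 and 1658, and 32 and 23. At 4-fold they were 103 and 48, 10 and 261, 90 and 74, and 1 and 0. The minimum changes how many genes are compared, while the pseudocount and the 4-fold threshold change the size of the differences and the limit they must pass. TMM factors left 1 gene lower than all 3. Means over cells gave 1738 higher and 857 lower than Ptges and 1 lower than all 3. Without mitochondrial and ribosomal protein genes in the total, 120 were higher than proliferative and 1 lower than all 3. The number higher than all 3 was 6 without doublets, 6 without cells with epithelial UMIs, 19 with Ptges read in wildtype TNF and 21 without Ptges (the last 3 settings were chosen after seeing the data). The share was 59.7% by the new cluster, and 0% in Tnfr2-/- untreated among cells of at least 5000 UMIs. Against Ptges, means over cells turned Sprr2a3 to -0.27 and Tnfsf9 to 0.010, and leaving out doublets turned Agr2 to -0.34 and Sprr2a3 to -0.66. Without cells with epithelial UMIs Agr2 was at -0.58, Sprr2a3 at -0.95 and Krt19 at -0.26 against Ptges and Sprr2a3 at -0.016 against generic. With the other classes summed over 4 libraries, Sprr2a3 was at -1.41, Krt19 at -0.042, Clu at -0.26, Cxcl12 at 0.74, Cxcl10 at -1.35 and Nrg1 at 0.84 against Ptges, and Cxcl10 at -0.10 against generic. With Ptges read in wildtype TNF, Cxcl12 was at 0.47, Cxcl10 at -1.77, Zbp1 at -0.10, Nrg1 at 0.83 and Vegfd at 0.060. The cause was not tested. Mesenchyme-Ptges had 34 cells, so a gene with a single UMI there stood at 2.92 CPM, which limits every difference from it.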
